A study of Arabidopsis thaliana with 12 samples.

Results

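The genes described here are the nuclear genes for the protein subunits of the 2 photosystems, their light-harvesting antennae and the small subunit of Rubisco in *Arabidopsis thaliana*. They were chosen by name, as 43 gene identifiers among the 33602 genes counted: 4 *LHCA* genes (the antenna of photosystem I), 9 *LHCB1* to *LHCB3* genes (the major antenna of photosystem II), 5 *LHCB4* to *LHCB6* genes (its minor antenna), 12 *PSA* genes (photosystem I subunits), 9 *PSB* genes (photosystem II subunits) and 4 *RBCS* genes. The rule lists identifiers and uses no measured value, although results of these data were known when it was written. All 43 passed the filter on low counts in every comparison.

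RNA was sequenced from whole 7-day-old seedlings, roots and shoots together, grown with sucrose under long days and then placed in liquid medium. There were 4 groups of 3 libraries: *nup85-1* with 50 µM ABA (abscisic acid, the hormone of drought and salt responses) for 3 h, *nup85-1* with mock treatment, Col-0 with the same ABA treatment, and Col-0 with mock treatment. Col-0 is the wild type, and *nup85-1* is 1 homozygous line in that background with a T-DNA insertion in *NUP85*, which encodes a subunit of the nuclear pore. The labels do not say whether replicates came from separate cultures, so the tests measure the spread between these libraries.

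Between 6616931 and 29798437 reads per library fell on genes, and between 619122 and 1876977 of them on the 43 genes. The targeted gene had 3.20, 1.98 and 17.0 CPM (read counts divided by the library size, which was scaled by TMM, the trimmed-mean normalization of edgeR) in the ABA libraries labelled *nup85-1* and 40.0, 41.5 and 29.3 CPM in those of Col-0. Under mock treatment *NUP85* had 3.54, 1.73 and 27.5 CPM in the libraries labelled *nup85-1* and 31.3, 29.1 and 16.1 CPM in those of Col-0. In mock replicate 3 it was therefore higher in the library labelled *nup85-1* than in Col-0, against the label, and every direction between genotypes below refers to libraries as labelled. Replicate 3 stood apart from replicates 1 and 2 in all 4 groups, so counts, and the results that it changed most, are also given for replicates 1 and 2.

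In the chloroplast, antenna proteins of the LHC family hold chlorophyll and pass light energy to photosystem II, which splits water, and to photosystem I, which reduces ferredoxin. Rubisco then fixes carbon dioxide, with a large subunit encoded in the plastid and small subunits encoded by the *RBCS* genes. Transcripts of nuclear photosynthesis genes are known to depend on light, on the circadian clock and on chloroplast state, and ABA is known to lower many of them.

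The 43 genes together took a smaller share of reads after ABA in both genotypes. Their share of all gene reads was 6.0, 4.26 and 7.77% in the *nup85-1* ABA libraries and 14.9, 13.2 and 10.7% in the *nup85-1* mock libraries. In Col-0 the share was 5.2, 6.02 and 6.25% after ABA and 14, 9.74 and 11.7% with mock. No ABA library reached the lowest mock library of either genotype. The group means were 6.01 ± 1.76% in *nup85-1* ABA, 12.9 ± 2.11% in *nup85-1* mock, 5.82 ± 0.551% in Col-0 ABA and 11.8 ± 2.12% in Col-0 mock (SD, n = 3 each). In whole seedlings, fewer green cells and less of these RNAs per cell cannot be told apart.

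Each gene was then tested with edgeR's quasi-likelihood test, with p-values adjusted by Benjamini-Hochberg over all genes tested and an adjusted p under 0.05 as the threshold. In *nup85-1*, 11 of the 43 genes were lower after ABA and 0 were higher, where 13.8% of all 20001 genes tested were called lower and 15.4% higher. At an unadjusted p under 0.05 there were 19 of 43 (44.2%), close to the 42.1% of all genes, and DESeq2 called 23 of 43 lower (15% of all genes). In Col-0, 18 of 43 were lower and 0 higher, where 14.9% of all 20062 genes were called lower and 16.5% higher. There 24 of 43 (55.8%) had an unadjusted p under 0.05, against 44.5% of all genes, and DESeq2 called 27 of 43 lower (16% of all genes). All 43 fold changes were negative in both genotypes, with a median log2 fold change of -0.97 in *nup85-1* and -0.95 in Col-0, against medians of 0.01 and -0.01 over all genes tested. The 11 genes called in *nup85-1* were all among the 18 called in Col-0, and 25 of the 43 were called in neither. The ABA and mock libraries did not overlap for 23 of the 43 in *nup85-1* (23.9% of all genes were lower without overlap) and for 30 of 43 in Col-0 (24.7% of all genes).

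The number called depended on the libraries. With replicates 1 and 2 alone, 40 of 43 were lower in *nup85-1* (25.9% of all genes) with a median of -1.56, and 27 of 43 were lower in Col-0 (23.2% of all genes) with a median of -1.05. Without *nup85-1* ABA replicate 3 the count in *nup85-1* was 32 (19.2% of all genes). Leaving out another library of that genotype brought it near the share of all genes called lower. It was 4 without *nup85-1* ABA replicate 1 (9.3% of the 43 against 8.66% of all genes), 5 without *nup85-1* ABA replicate 2 (11.6% against 8.26%), 3 without *nup85-1* mock replicate 1 (6.98% against 7.28%), 5 without *nup85-1* mock replicate 2 (11.6% against 7.72%) and 7 without *nup85-1* mock replicate 3 (16.3% against 11.1%). In Col-0 the count was 8 without ABA replicate 1 (18.6% against 7.19%), 9 without ABA replicate 2 (20.9% against 7.32%) and 10 without mock replicate 1 (23.3% against 8.06%).

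Taken by replicate number, the median log2 difference of the 43 genes between ABA and mock was -1.51, -1.71 and -0.31 in *nup85-1* replicates 1, 2 and 3, and -1.49, -0.70 and -0.95 in those of Col-0. All 43 genes were lower in *nup85-1* replicates 1 and 2, and 30 of 43 in replicate 3. In Col-0 the numbers were 43, 41 and 39. Across the 43 genes, the fold changes of the 2 genotypes, which share no library, had a Pearson r of 0.976 and a Spearman rho of 0.914 with 3 replicates. This describes the genes, which are not independent replicates. The 2 sets of fold changes may not be independent either, because same-numbered libraries of the 2 genotypes deviated together from their group means.

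**Figure D1:**
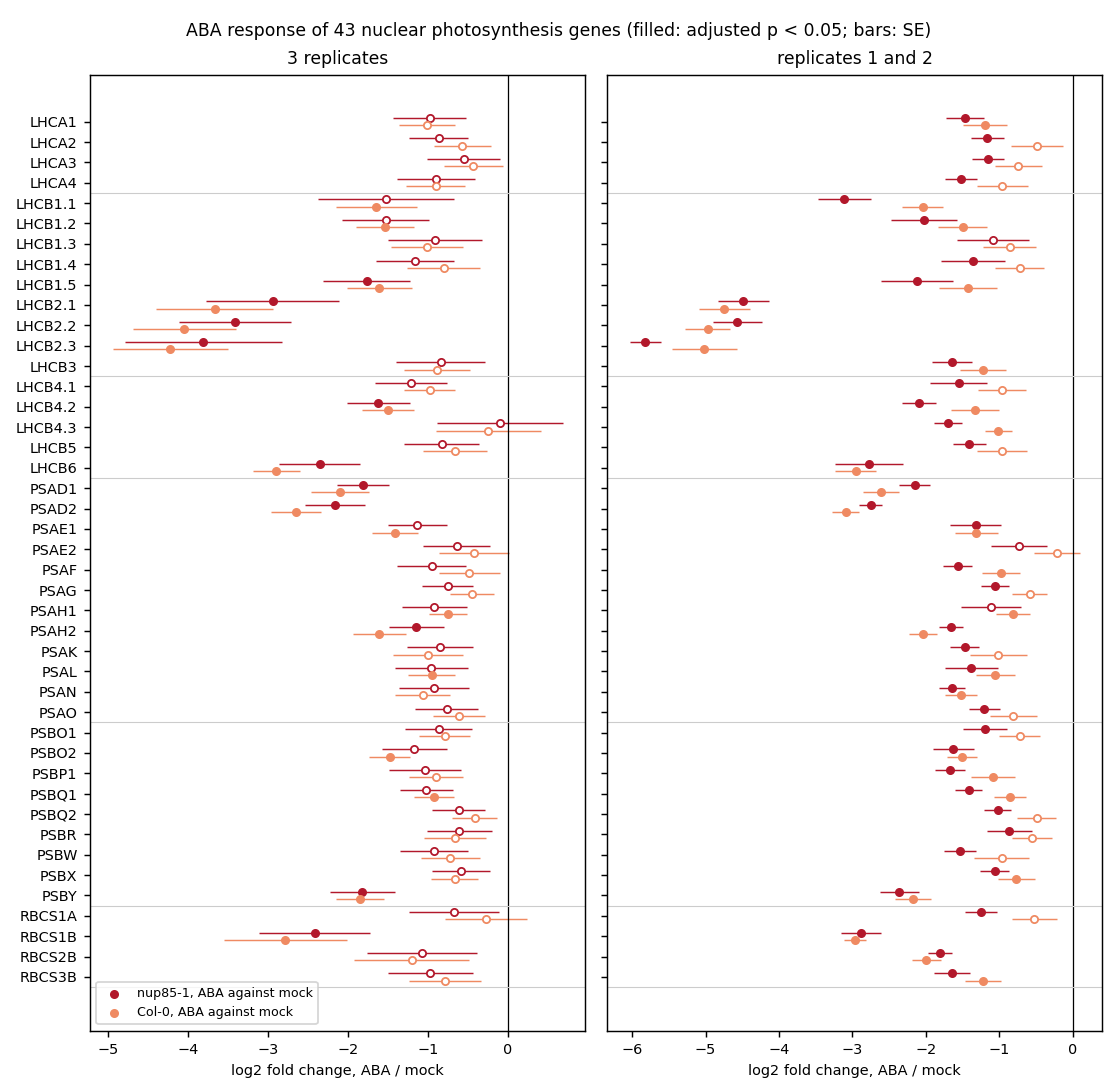
Log2 fold change of ABA over mock (horizontal axis) for each of the 43 genes, in *nup85-1* and in Col-0, with all 3 replicates (left) and with replicates 1 and 2 (right). Bars are standard errors and filled points passed an adjusted p under 0.05 in edgeR. All points of the left panel lie below 0, and the 3 *LHCB2* genes lie farthest left.

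The largest falls were those of the 3 *LHCB2* genes, which encode 1 of the 3 protein types of the trimeric major antenna. *LHCB2.3* (AT3G27690, chr3:10255906-10257489 on the plus strand of TAIR10.1) had 34.4, 28.9 and 312 CPM in *nup85-1* ABA replicates 1, 2 and 3, against 1898, 1661 and 1693 CPM in *nup85-1* mock. In Col-0 *LHCB2.3* had 51.8, 30.2 and 163 CPM after ABA, against 1759, 941 and 1904 CPM with mock. The groups did not overlap in either genotype, and the ABA library of replicate 3 was the highest of its group in both. The log2 fold change was -3.81 (SE 0.98, adjusted p = 0.0272) in *nup85-1* and -4.23 (SE 0.72, adjusted p = 0.00659) in Col-0.

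*LHCB2.1* (AT2G05100, chr2:1822990-1824480, minus strand) had 212, 110.4 and 1015 CPM in *nup85-1* ABA, against 3991, 3188 and 3100.3 CPM in *nup85-1* mock. In Col-0 it had 117, 79.2 and 463 CPM after ABA, against 3163, 2173 and 3086 CPM with mock. The log2 fold change was -2.94 (SE 0.83, adjusted p = 0.0372) in *nup85-1* and -3.67 (SE 0.73, adjusted p = 0.0113) in Col-0. *LHCB2.2* (AT2G05070), a near neighbour of *LHCB2.1* on chromosome 2, followed it. It had 166, 89.4 and 539 CPM in *nup85-1* ABA, against 3328, 2694 and 2451 CPM in *nup85-1* mock, and its log2 fold change there was -3.42 (SE 0.70, adjusted p = 0.0125). In Col-0 *LHCB2.2* had 79.0, 61.4 and 266 CPM after ABA, against 2602, 1864 and 2292 CPM with mock, a log2 fold change of -4.05 (SE 0.64, adjusted p = 0.00526). With replicates 1 and 2 alone the 3 genes fell further, to between -4.48 and -5.82 in *nup85-1* and between -4.74 and -5.02 in Col-0. *LHCB2.1* and *LHCB2.2* share 96.6% of their coding bases, and 17.7% of the 70-base windows in *LHCB2.1* exons and 22.3% of those in *LHCB2.2* occur more than once in the genome, so reads of this pair could be split or lost between them. *LHCB2.3* had no such window. As a share of all reads on the 14 *LHCB* genes, the 3 *LHCB2* genes together took 1.76, 1.92 and 5.83% in *nup85-1* ABA and 13.6, 13.3 and 15.1% in *nup85-1* mock. In Col-0 they took 1.35, 0.755 and 4.1% after ABA and 11.7, 11.7 and 13.6% with mock, so the make-up of the antenna transcripts differed between treatments in every replicate.

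The 250 bases before the annotated gene starts are printed for the 4 genes with the largest falls in Col-0, the *LHCB2* genes and *LHCB6*, and for *PSBQ2*, which had a small fold change that did not pass the test, so that the motif content of both kinds can be read beside their values. They come from the RefSeq genome TAIR10.1 at chr2:1824481-1824730 (minus strand), chr2:1800473-1800722 (minus), chr3:10255656-10255905 (plus), chr1:5447881-5448130 (minus) and chr4:2673244-2673493 (minus). Capitals mark any of 4 motifs on either strand: the G-box CACGTG, the ABRE core ACGTG, the I-box core GATAAG and the CCAAT box. Every G-box contains the ABRE core.
LHCB2.1: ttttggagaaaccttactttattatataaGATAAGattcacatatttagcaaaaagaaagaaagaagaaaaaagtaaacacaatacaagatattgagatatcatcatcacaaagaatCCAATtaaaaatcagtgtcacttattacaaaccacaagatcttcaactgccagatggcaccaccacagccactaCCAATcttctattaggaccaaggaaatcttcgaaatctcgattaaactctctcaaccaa
LHCB2.2: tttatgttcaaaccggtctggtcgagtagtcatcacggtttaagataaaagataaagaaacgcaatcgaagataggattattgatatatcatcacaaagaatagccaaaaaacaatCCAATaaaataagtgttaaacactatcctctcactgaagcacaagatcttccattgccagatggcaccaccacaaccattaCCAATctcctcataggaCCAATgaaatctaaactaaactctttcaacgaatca
LHCB2.3: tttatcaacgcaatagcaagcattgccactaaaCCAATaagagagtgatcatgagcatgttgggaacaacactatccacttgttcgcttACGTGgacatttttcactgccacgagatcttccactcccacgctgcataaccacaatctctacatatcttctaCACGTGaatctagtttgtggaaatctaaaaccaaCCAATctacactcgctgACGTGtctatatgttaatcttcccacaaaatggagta
LHCB6: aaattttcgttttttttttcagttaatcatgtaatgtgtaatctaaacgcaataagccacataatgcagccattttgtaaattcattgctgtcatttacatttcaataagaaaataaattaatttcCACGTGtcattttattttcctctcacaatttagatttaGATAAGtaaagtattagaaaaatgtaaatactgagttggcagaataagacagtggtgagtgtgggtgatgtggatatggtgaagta
PSBQ2: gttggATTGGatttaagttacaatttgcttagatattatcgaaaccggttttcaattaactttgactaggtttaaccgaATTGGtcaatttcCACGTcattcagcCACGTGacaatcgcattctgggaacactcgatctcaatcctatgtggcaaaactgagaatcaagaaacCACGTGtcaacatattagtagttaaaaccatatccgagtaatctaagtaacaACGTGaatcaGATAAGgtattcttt

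*LHCB2.1* and *LHCB2.2* have 59.3% identical upstream bases in a global alignment and share the 20-base run tgccagatggcaccaccaca, whereas the longest run shared by *LHCB2.1* and *LHCB2.3* has 8 bases. *LHCB2.3* and *LHCB6* hold a G-box. *LHCB2.1* and *LHCB2.2* hold neither a G-box nor an ABRE core within these 250 bases. *PSBQ2*, with a fold change near the smallest, holds 2 G-boxes and 11 motif matches, the most of the 43 genes. In these match counts each G-box is counted as itself and again as an ABRE core on each strand. Genes with a G-box therefore have fewer separate sites than matches. Other genes with small fold changes in Col-0 held fewer matches: 0 in *RBCS1A*, 1 each in *LHCA3* and *LHCB4.3*, and 4 in *PSAE2*. Among all 43 genes, 9 held a G-box (20.9%, against 6.49% of 27437 protein-coding genes), 16 an ABRE core (37.2% against 22.9%), 10 an I-box core (23.3% against 12.3%), 0 the evening element AAAATATCT of clock-controlled genes (against 2.36%) and 28 a CCAAT box (65.1% against 46.0%). All 9 *LHCB1* to *LHCB3* genes and all 4 *LHCA* genes held a CCAAT box, as did 7 of 12 *PSA*, 2 of 9 *PSB* and 2 of 4 *RBCS* genes. A match describes letters in this window and is no evidence of binding, and motifs outside the window were not searched.

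The 5 *LHCB1* genes encode the most abundant protein of the major antenna. Of them, *LHCB1.5* was called lower in both genotypes, with a log2 fold change of -1.77 (SE 0.55, adjusted p = 0.0488) in *nup85-1* and -1.61 (SE 0.41, adjusted p = 0.0247) in Col-0. *LHCB1.1*, *LHCB1.2* and *LHCB1.3* lie side by side on chromosome 1. *LHCB1.1* (AT1G29920) had 686, 329.9 and 3609 CPM in *nup85-1* ABA, against 4924, 3812 and 4583 CPM in *nup85-1* mock. In Col-0 it had 857, 971 and 2373 CPM after ABA, against 4398, 3255 and 5554 CPM with mock. In both genotypes its ABA level was more than 2-fold higher in replicate 3 than in replicates 1 and 2. Its log2 fold change was -1.53 (SE 0.85, adjusted p = 0.216) in *nup85-1* and -1.64 (SE 0.50, adjusted p = 0.0453) in Col-0 with 3 replicates, and -3.11 and -2.05 with replicates 1 and 2.

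*LHCB1.2* (AT1G29910) had 2021, 689 and 2352 CPM in *nup85-1* ABA, against 5969, 5028 and 3589 CPM in *nup85-1* mock, a log2 fold change of -1.53 (SE 0.54, adjusted p = 0.0733). In Col-0 it had 1629.7, 2079.5 and 1469 CPM after ABA, against 6485, 4121 and 4602 CPM with mock, and it passed the test there at -1.54 (SE 0.36, adjusted p = 0.0196). *LHCB1.3* (AT1G29930), the gene of the cluster with most reads, did not pass in either genotype. It had 10078, 3098 and 7545 CPM in *nup85-1* ABA, against 15148, 12593 and 11102 CPM in *nup85-1* mock, and a log2 fold change of -0.91 (SE 0.59, adjusted p = 0.281). In Col-0 *LHCB1.3* had 6566, 8456 and 4740.3 CPM after ABA, against 15888, 11738 and 12717 CPM with mock, and -1.02 (SE 0.45, adjusted p = 0.128). Its *nup85-1* ABA libraries spread more than 3-fold, with replicate 1 highest and replicate 2 lowest, and still lay below every mock library of that genotype. *LHCB1.4* (AT2G34430) had the smallest fall of the major antenna genes in Col-0. In *nup85-1* it had 1377, 469 and 805 CPM after ABA, against 2562, 2137 and 1216 CPM with mock, and -1.16 (SE 0.49, adjusted p = 0.116). In Col-0 *LHCB1.4* had 1100.1, 1393 and 572 CPM after ABA, against 2685, 1489.8 and 1229 CPM with mock, and -0.80 (SE 0.46, adjusted p = 0.219). The 3 clustered genes are 95.6% to 96.4% identical in their coding bases, and between 4.51% and 11.6% of their 70-base windows are not unique, so single values within the cluster are uncertain.

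The minor antenna links the major antenna to the core of photosystem II. *LHCB6* (AT1G15820, chr1:5446462-5447880, minus strand), its outermost member, had 798, 265 and 844 CPM in *nup85-1* ABA, against 3861, 3342 and 2550.1 CPM in *nup85-1* mock. In Col-0 *LHCB6* had 393, 383 and 416 CPM after ABA, against 3603, 2506 and 2847 CPM with mock, and the 3 ABA libraries lay close together. The log2 fold change was -2.36 (SE 0.51, adjusted p = 0.0151) in *nup85-1* and -2.90 (SE 0.30, adjusted p = 0.00156) in Col-0. Unlike the *LHCB2* genes, *LHCB6* had nearly the same level in replicate 3 as in replicate 1 after ABA, in both genotypes.

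Of the 3 *LHCB4* genes, *LHCB4.2* passed in both genotypes, at -1.62 (SE 0.39, adjusted p = 0.0219) in *nup85-1* and -1.50 (SE 0.32, adjusted p = 0.0149) in Col-0, and *LHCB4.1* in neither, at -1.22 (SE 0.45, adjusted p = 0.0830) in *nup85-1* and -0.98 (SE 0.32, adjusted p = 0.0552) in Col-0. *LHCB4.3* (AT2G40100) was the member with the fewest reads. It had 3.76, 3.46 and 28.5 CPM in *nup85-1* ABA, against 12.1, 11.3 and 15.1 CPM in *nup85-1* mock. In Col-0 it had 5.09, 5.45 and 25.2 CPM after ABA, against 10.8, 10.8 and 21.0 CPM with mock. Replicates 1 and 2 were lower after ABA and replicate 3 was higher, in both genotypes. Its log2 fold change was -0.10 in *nup85-1* and -0.25 in Col-0 with 3 replicates, and -1.70 (SE 0.19, adjusted p = 0.000206) and -1.01 (SE 0.19, adjusted p = 0.00620) with replicates 1 and 2.

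The 4 *LHCA* genes encode the antenna belt of photosystem I, and 0 of the 4 passed edgeR's test in either genotype with 3 replicates, with 1 of 4 in *nup85-1* and 2 of 4 in Col-0 at an unadjusted p under 0.05, where 42.1% and 44.5% of all genes had one. DESeq2 called 2 of 4 lower in *nup85-1* (15% of all genes) and 2 of 4 in Col-0 (16%). *LHCA1* (AT3G54890) had 2713, 1771 and 3609 CPM in *nup85-1* ABA, against 6467, 5897 and 3571 CPM in *nup85-1* mock, and a log2 fold change of -0.98 (SE 0.45, adjusted p = 0.147). In Col-0 *LHCA1* had 2511, 2290.4 and 2603 CPM after ABA, against 6487, 4671 and 3893 CPM with mock, and -1.01 (SE 0.35, adjusted p = 0.0665). In *nup85-1* the replicate 3 libraries of both treatments were nearly level, whereas replicates 1 and 2 differed more than 2-fold. *LHCA3* (AT1G61520) had 1949.5, 2401 and 4161 CPM in *nup85-1* ABA, against 5168, 4439 and 2881 CPM in *nup85-1* mock. In Col-0 *LHCA3* had 2249.9, 2516 and 3502 CPM after ABA, against 4989.6, 3099 and 3149 CPM with mock. In replicate 3 *LHCA3* was higher after ABA than with mock in both genotypes, against lower in replicates 1 and 2, and its log2 fold change was -0.56 in *nup85-1* and -0.43 in Col-0. All 4 *LHCA* genes passed in *nup85-1* with replicates 1 and 2 (25.9% of all genes were lower). In Col-0 1 of 4, *LHCA1*, passed, near the share of all genes (23.2%).

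**Figure D2:**
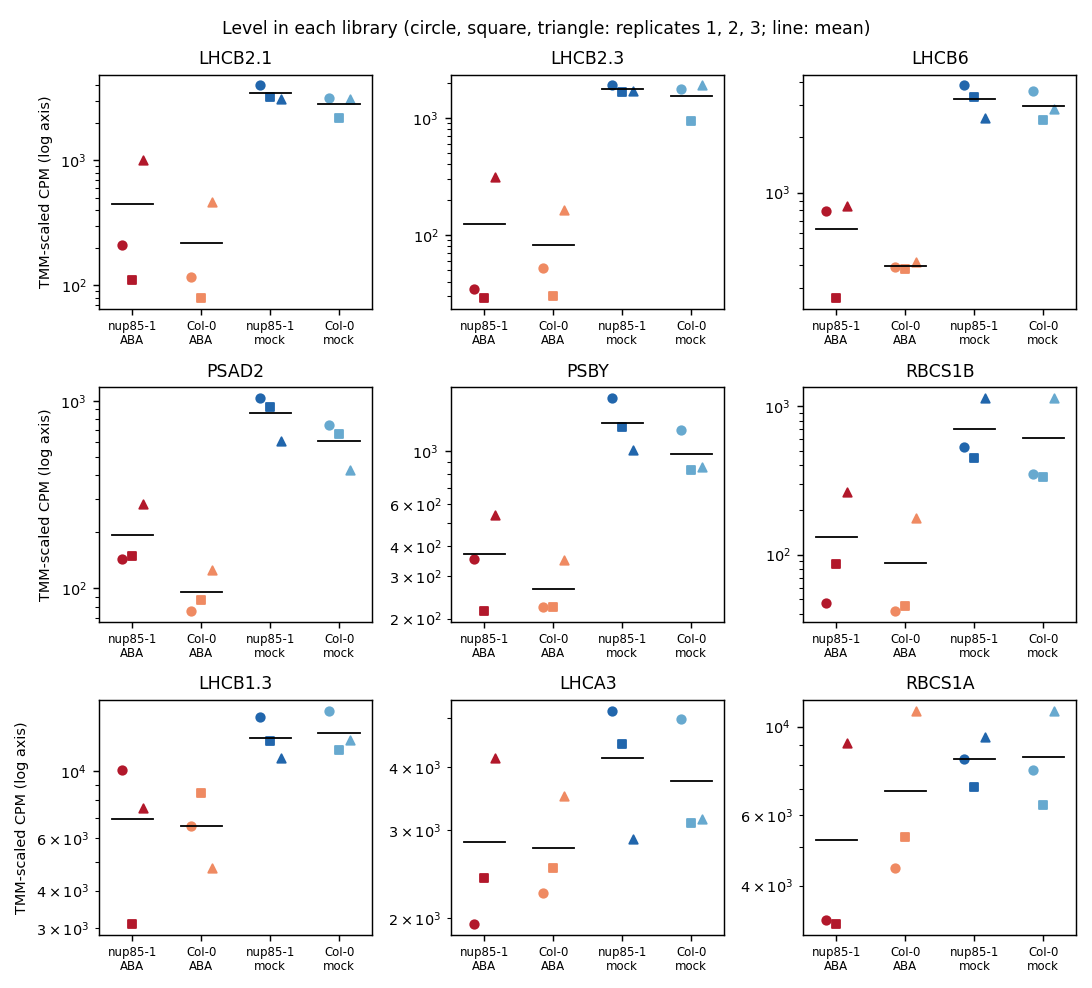
TMM-scaled CPM (vertical log axes, which differ between panels) of 9 of the genes in each of the 12 libraries, with the group mean as a line. For *LHCB2.1*, *LHCB2.3*, *LHCB6*, *PSAD2*, *PSBY* and *RBCS1B* the ABA and mock libraries of a genotype do not overlap, whereas for *LHCA3* and *RBCS1A* replicate 3 (triangles) is as high after ABA as with mock or nearly so.

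Among the photosystem I subunits, *PSAD1* and *PSAD2*, the 2 genes for the stromal subunit at which ferredoxin docks, fell most of the class. *PSAD2* (AT1G03130, chr1:753307-754262, minus strand) had 143, 149 and 284 CPM in *nup85-1* ABA, against 1034, 924 and 614 CPM in *nup85-1* mock. In Col-0 *PSAD2* had 75.8, 87.1 and 126 CPM after ABA, against 739.9, 669 and 429.7 CPM with mock. Its log2 fold change was -2.16 (SE 0.37, adjusted p = 0.00710) in *nup85-1* and -2.66 (SE 0.31, adjusted p = 0.00224) in Col-0. *PSAD1* (AT4G02770) fell by 1.81 on the log2 scale in *nup85-1* (SE 0.33, adjusted p = 0.00807) and by 2.1 in Col-0 (SE 0.37, adjusted p = 0.00735), so both copies, which are 86.3% identical in coding bases, were lower.

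*PSAE1* and *PSAE2* encode a second stromal subunit near the ferredoxin site. *PSAE1* had a log2 fold change of -1.13 (SE 0.37, adjusted p = 0.0562) in *nup85-1* and passed in Col-0 at -1.41 (SE 0.29, adjusted p = 0.0119). *PSAE2* (AT2G20260) had 376, 141 and 191 CPM in *nup85-1* ABA, against 470.0, 387 and 243 CPM in *nup85-1* mock. In Col-0 *PSAE2* had 330.2, 373 and 136 CPM after ABA, against 543, 282 and 315 CPM with mock. The groups overlapped in both genotypes, and the log2 fold change of *PSAE2* was -0.64 (SE 0.42, adjusted p = 0.289) in *nup85-1* and -0.43 (SE 0.44, adjusted p = 0.485) in Col-0. The share of *PSAE2* in the reads of the pair was 34.4, 31.1 and 24.8% in *nup85-1* ABA, against 25.3, 24.9 and 20.1% in *nup85-1* mock, and 42.8, 41.9 and 23.9% in Col-0 ABA, against 26.4, 23.8 and 19.4% in Col-0 mock. It was higher after ABA than with mock at each replicate number. *PSAH2*, of the pair that encodes a docking subunit for the mobile antenna, passed in both genotypes, at -1.15 (SE 0.34, adjusted p = 0.0441) in *nup85-1* and -1.61 (SE 0.33, adjusted p = 0.0121) in Col-0. *PSAH1* had -0.92 (SE 0.40, adjusted p = 0.129) in *nup85-1* and passed in Col-0, at -0.75 (SE 0.23, adjusted p = 0.0476). Of the remaining single-copy genes, *PSAL* passed in Col-0 at -0.95 (SE 0.29, adjusted p = 0.0468), and *PSAF*, *PSAG*, *PSAK*, *PSAN* and *PSAO* passed in neither genotype, with log2 fold changes between -0.95 and -0.75 in *nup85-1* and between -1.07 and -0.45 in Col-0.

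Among the photosystem II subunits, *PSBY* (AT1G67740), which encodes small membrane subunits of the core, fell most. It had 355, 215 and 541 CPM in *nup85-1* ABA, against 1659, 1257 and 1011 CPM in *nup85-1* mock. In Col-0 *PSBY* had 224, 224 and 351 CPM after ABA, against 1216, 832 and 857 CPM with mock. Its log2 fold change was -1.82 (SE 0.41, adjusted p = 0.0165) in *nup85-1* and -1.85 (SE 0.30, adjusted p = 0.00556) in Col-0. *PSBO1*, *PSBO2*, *PSBQ1* and *PSBQ2* encode extrinsic proteins of the water-splitting site, and differences between their copies were not tested. *PSBO2* had -1.17 (SE 0.41, adjusted p = 0.0712) in *nup85-1* and passed in Col-0, at -1.48 (SE 0.25, adjusted p = 0.00678). Its partner *PSBO1* passed in neither, at -0.87 (SE 0.42, adjusted p = 0.161) in *nup85-1* and -0.79 (SE 0.32, adjusted p = 0.0979) in Col-0. *PSBQ1* had -1.02 (SE 0.33, adjusted p = 0.0580) in *nup85-1* and passed in Col-0, at -0.92 (SE 0.25, adjusted p = 0.0312).

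*PSBQ2* (AT4G05180) had 828, 909 and 1349 CPM in *nup85-1* ABA, against 1923, 1591 and 1215 CPM in *nup85-1* mock. In Col-0 *PSBQ2* had 1109, 1350.1 and 1203 CPM after ABA, against 2059, 1440.0 and 1427 CPM with mock. Its log2 fold change was -0.62 (SE 0.33, adjusted p = 0.203) in *nup85-1* and -0.41 (SE 0.28, adjusted p = 0.298) in Col-0, the smallest of the *PSB* genes there. The Col-0 groups did not overlap even so, while in *nup85-1* ABA replicate 3 exceeded mock replicate 3. *PSBP1*, *PSBR*, *PSBW* and *PSBX* passed in neither genotype with 3 replicates, and their log2 fold changes lay between -1.03 and -0.59 in *nup85-1* and between -0.91 and -0.66 in Col-0. All 9 *PSB* genes passed in *nup85-1* with replicates 1 and 2 (25.9% of all genes were lower), and 5 of 9 in Col-0 (23.2%).

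The 4 *RBCS* genes encode interchangeable small subunits of Rubisco, and 1 of 4, *RBCS1B*, passed in each genotype. Among all genes, 13.8% were lower in *nup85-1* and 14.9% in Col-0. *RBCS1B* (AT5G38430, chr5:15383167-15385320, minus strand) had 47.4, 86.9 and 263 CPM in *nup85-1* ABA, against 534, 449.9 and 1139 CPM in *nup85-1* mock. In Col-0 *RBCS1B* had 41.6, 45.3 and 177 CPM after ABA, against 353, 334 and 1138 CPM with mock. Replicate 3 was the highest library in all 4 groups, and the fall stood within replicate 3 as well. The log2 fold change was -2.42 (SE 0.69, adjusted p = 0.0389) in *nup85-1* and -2.79 (SE 0.77, adjusted p = 0.0332) in Col-0. *RBCS1A* (AT1G67090), which lies apart from the other 3 on chromosome 1 and took most reads of the family, had 3288, 3208 and 9109 CPM in *nup85-1* ABA, against 8319, 7081 and 9436 CPM in *nup85-1* mock. In Col-0 *RBCS1A* had 4438, 5298 and 10952 CPM after ABA, against 7807, 6371 and 10941 CPM with mock. Replicate 3 of *RBCS1A* was nearly level between treatments in both genotypes, and the log2 fold change was -0.67 (SE 0.56, adjusted p = 0.404) in *nup85-1* and -0.27 (SE 0.51, adjusted p = 0.712) in Col-0.

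*RBCS2B* (AT5G38420) and *RBCS3B* (AT5G38410) neighbour *RBCS1B* on chromosome 5. *RBCS2B* had 345, 385 and 1687 CPM in *nup85-1* ABA, against 1336, 1216 and 2543 CPM in *nup85-1* mock. In Col-0 *RBCS2B* had 273, 326 and 1524 CPM after ABA, against 1249, 1169 and 2492 CPM with mock. It was lower after ABA within each replicate number, but the replicate 3 libraries were so much higher that the groups overlapped, and its log2 fold change was -1.08 (SE 0.69, adjusted p = 0.274) in *nup85-1* and -1.21 (SE 0.72, adjusted p = 0.240) in Col-0. *RBCS3B* had 1189, 808 and 2957 CPM in *nup85-1* ABA, against 3468, 2748 and 3479.6 CPM in *nup85-1* mock, and -0.97 (SE 0.53, adjusted p = 0.207). In Col-0 *RBCS3B* had 1030.2, 1183 and 2723 CPM after ABA, against 2900.2, 2352 and 3301 CPM with mock, and -0.78 (SE 0.45, adjusted p = 0.220). All 4 *RBCS* genes passed in *nup85-1* with replicates 1 and 2 (25.9% of all genes were lower), and *RBCS1B*, *RBCS2B* and *RBCS3B* in Col-0 (23.2%). The 3 clustered genes share 96.7% to 97.3% of their coding bases, and 6.59% to 14.3% of their 70-base windows are not unique, so values within the cluster are uncertain. *RBCS1A* took 67.5, 71.5 and 65.0% of the reads of the family in *nup85-1* ABA, against 60.9, 61.6 and 56.9% in *nup85-1* mock, and 76.8, 77.3 and 71.2% in Col-0 ABA, against 63.4, 62.3 and 61.2% in Col-0 mock. Its share was thus higher in every ABA library than in every mock library.

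**Figure D3:**
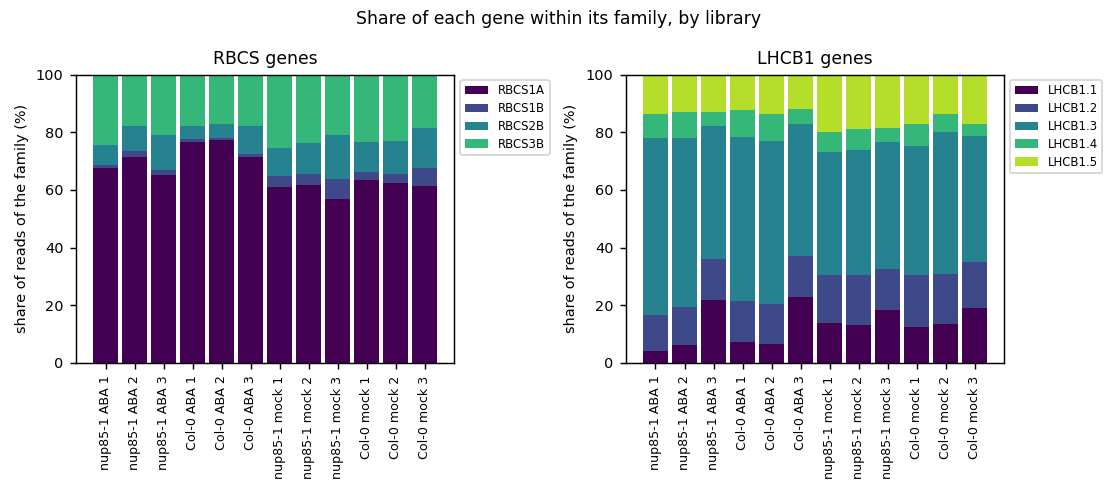
Share of the reads of a family (vertical axis, percent) taken by each *RBCS* gene (left) and each *LHCB1* gene (right) in the 12 libraries. *RBCS1A* takes between 65.0% and 77.3% in ABA libraries and between 56.9% and 63.4% in mock libraries, and *LHCB1.1* takes 21.9% and 22.9% in the replicate 3 ABA libraries but 4.2% to 7.4% in the other ABA libraries.

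Levels can be compared between genes only per length. On the scale of TMM-scaled CPM per kilobase of exon, the highest mean levels in Col-0 mock were those of *LHCB1.3* (10933 ± 1764), *RBCS1A* (6604 ± 1843), *LHCA4* (4811 ± 1214) and *PSBR* (4765 ± 776; SD, n = 3 each). *LHCB1.3* was above *RBCS1A* in every pair of these libraries, and *RBCS1A*, *LHCA4* and *PSBR* did not differ beyond their spread. The lowest was *LHCB4.3*, at 9.79 ± 4.07. The 3 *LHCB2* genes ranked 18, 21 and 35 of 43, at 1997 ± 392 for *LHCB2.1*, 1971 ± 324 for *LHCB2.2* and 1047 ± 355 for *LHCB2.3*, so the largest falls were not those of the most abundant transcripts.

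Whether these genes differed between genotypes was tested within each treatment. After ABA, edgeR called 0 of 43 between the genotypes with 3 replicates, and 0 of all 20270 genes (0%), while 1 of 43 had an unadjusted p under 0.05, as did 995 of all genes. DESeq2 called 0 of the 43 and 88 of all genes. The median log2 fold change of the 43 was 0.10. By replicate number the median difference was 0.19, -0.53 and 0.47 in replicates 1, 2 and 3, with 28, 10 and 41 of 43 genes higher in *nup85-1*, so its sign differed between replicates. Libraries that carry the same number deviated together from their group means in both genotypes. When this number entered the model as a block, 2 genes passed, both higher in *nup85-1* (0.903% of all genes were called higher). With replicates 1 and 2, 1 gene passed, also higher (1.53% of all genes), with 10 of 43 (23.3%) at an unadjusted p under 0.05, against 21.6% of all genes.

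*PSAD2* passed in both of these settings. Its ABA levels were higher in all 3 *nup85-1* libraries than in all 3 Col-0 libraries, and it was the 1 gene of 43 without overlap (6.28% of all genes were higher without overlap). Its log2 fold change after ABA was 0.99 (SE 0.33, adjusted p = 0.978) with 3 replicates, 0.95 (SE 0.12, adjusted p = 0.0230) with the block and 0.84 (SE 0.11, adjusted p = 0.0208) with replicates 1 and 2. *LHCB2.2* passed with the block at 0.88 (SE 0.14, adjusted p = 0.0398), and had 0.95 (SE 0.80, adjusted p = 1.000) without it and 0.86 (SE 0.29, adjusted p = 0.167) in replicates 1 and 2. It was higher in the *nup85-1* library at each replicate number, although the groups overlapped because replicate 3 of Col-0 exceeded replicates 1 and 2 of *nup85-1*. Their partners did not pass after ABA with the block, at 0.77 (SE 0.16, adjusted p = 0.0796) for *PSAD1* and 0.83 (SE 0.15, adjusted p = 0.0564) for *LHCB2.1*. With the block in replicates 1 and 2, all 4 of these genes passed, each higher in *nup85-1* (4.14% of all genes were called higher).

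Under mock treatment 0 of 43 genes passed with 3 replicates (0% of 19606 genes), with the block (0.311% of all genes in either direction) and with replicates 1 and 2 (0.0155%). DESeq2 called 0 of the 43 and 35 of all genes, and 0 of 43 had an unadjusted p under 0.05 in edgeR with 3 replicates. The median log2 fold change of the 43 was 0.13 with 3 replicates. By replicate number it was 0.11, 0.43 and -0.16. *PSAD2* had a log2 fold change of 0.48 (SE 0.29, adjusted p = 0.955) under mock treatment. The ABA response itself was compared between genotypes by the interaction term, which called 0 of 43 genes with 3 replicates (0% of 20574 genes), with 0 of 43 and 309 of all genes at an unadjusted p under 0.05 and 0 called of the 41 that DESeq2 tested. It called 0 of 43 also with the block (0% of all genes) and with replicates 1 and 2 (0.00976%). For *PSAD2* it was 0.51 on the log2 scale with an SE of 0.48, and for *LHCB2.2* 0.64 with an SE of 0.92, so differences of that size could not be resolved with these libraries.

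Related genes outside the 43 were read from lists by function. Of 11 further subunits and LHC relatives, 3 were lower in *nup85-1* after ABA and 5 in Col-0, among them *PSBTN* at -2.22 (SE 0.24, adjusted p = 0.00171), *LHCA6* at -2.19 (SE 0.37, adjusted p = 0.00630) and *PSB27* at -1.50 (SE 0.27, adjusted p = 0.00761) in Col-0. Of 11 electron carriers and ATP synthase subunits, 3 were lower in *nup85-1* and 7 in Col-0, led in Col-0 by *ATPD*, a subunit of the ATP synthase (-2.61, SE 0.28, adjusted p = 0.00171), *PETE1*, a plastocyanin (-1.78, SE 0.28, adjusted p = 0.00509), and *ATPC1* (-1.47, SE 0.29, adjusted p = 0.0112). Of 15 Calvin cycle genes, 1 was lower in *nup85-1* and 4 in Col-0, led in Col-0 by *PRK*, which makes the acceptor for carbon dioxide (-1.89, SE 0.35, adjusted p = 0.00896), *CFBP1* (-1.14, SE 0.24, adjusted p = 0.0131) and *FBA2* (-1.65, SE 0.49, adjusted p = 0.0429). The counts in replicates 1 and 2 were 10 and 8 of 11, 11 and 10 of 11, and 14 and 10 of 15, in *nup85-1* and Col-0. Among all genes, 13.8% and 14.9% were lower with 3 replicates, and 25.9% and 23.2% with replicates 1 and 2. None of these 3 lists had a member called higher in either genotype. The list medians were -0.97, -0.90 and -1.04 in *nup85-1* and -1.29, -1.10 and -1.06 in Col-0, where the 43 genes had -0.97 and -0.95.

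With 3 replicates, 13.8% of all genes were lower and 15.4% higher in *nup85-1*, and 14.9% lower and 16.5% higher in Col-0. With replicates 1 and 2, 25.9% and 23.2% of all genes were lower. In chlorophyll synthesis, 11 of 17 genes were lower in *nup85-1* and 14 of 17 in Col-0, and 0 were higher. In replicates 1 and 2, 16 of 17 were lower in each. They were led in Col-0 by *GUN4*, an activator of the enzyme that inserts magnesium (-3.41, SE 0.38, adjusted p = 0.00187), *CHLI2*, a subunit of that enzyme (-1.58, SE 0.18, adjusted p = 0.00213), and *PORC*, which makes chlorophyllide in light (-2.46, SE 0.30, adjusted p = 0.00250). In the breakdown and senescence list, 3 of 6 tested genes were higher in each genotype and 0 lower, namely *ORE1*, a senescence regulator (2.69, SE 0.56, adjusted p = 0.0130 in Col-0), *PPH*, which removes the phytol tail (0.89, SE 0.22, adjusted p = 0.0220), and *NYC1*, a reductase of chlorophyll b (2.00, SE 0.49, adjusted p = 0.0224). Of 7 plastid-encoded partners of these subunits, 3 were lower in *nup85-1* and 7 in Col-0 with 3 replicates, led by *psaA* at -2.79 (SE 0.68, adjusted p = 0.0216), *psaB* at -2.90 (SE 0.71, adjusted p = 0.0225) and *psbB* at -2.94 (SE 0.74, adjusted p = 0.0247) in Col-0. With the replicate block these counts were 7 of 7 in *nup85-1* and 0 of 7 in Col-0, and with replicates 1 and 2 they were 7 of 7 in both. Plastid genes took 0.205, 0.0573 and 0.0422% of reads in *nup85-1* ABA and 0.617, 0.716 and 0.197% in *nup85-1* mock, and 0.177, 0.0479 and 0.169% in Col-0 ABA and 0.614, 1.83 and 0.440% in Col-0 mock, so these shares spread widely within each group.

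**Figure D4:**
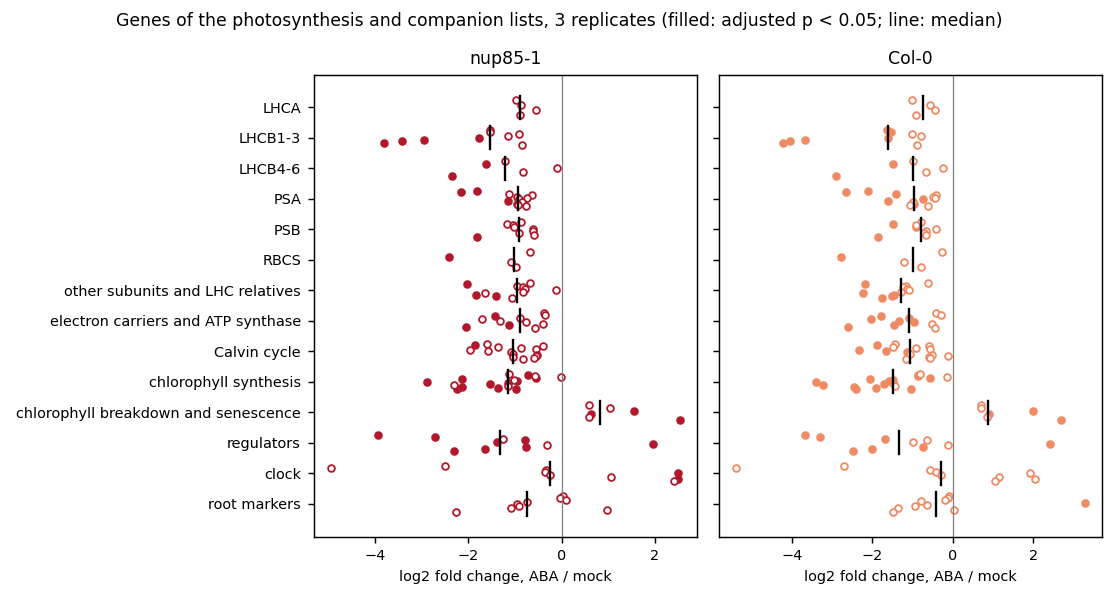
Log2 fold change of ABA over mock (horizontal axis) for the 6 classes of the 43 genes and for 8 related lists, in *nup85-1* (left) and Col-0 (right) with 3 replicates. Filled points passed an adjusted p under 0.05 and vertical lines are list medians. The photosynthesis and chlorophyll synthesis lists lie below 0, the chlorophyll breakdown list lies above it, and the clock genes spread to both sides.

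More of the listed regulators of these genes were called lower than higher after ABA. The list was not sorted into activators and repressors, so these counts give no joint direction of regulation. *GLK1* and its homologue *GLK2* encode transcription factors that activate antenna and chlorophyll synthesis genes. *GLK1* had 11.8, 11.8 and 15.4 CPM in *nup85-1* ABA, against 204, 198 and 192 CPM in *nup85-1* mock, and -3.93 (SE 0.20, adjusted p = 0.000355). In Col-0 *GLK1* had 11.1, 10.4 and 16.9 CPM after ABA, against 167, 158 and 171 CPM with mock, and -3.68 (SE 0.24, adjusted p = 0.000602). The ABA and mock libraries lay far apart in all 3 replicates. Of 10 regulators tested, 7 were lower and 1 higher in *nup85-1* (13.8% and 15.4% of all genes), and 6 were lower and 1 higher in Col-0 (14.9% and 16.5%). In replicates 1 and 2, 9 were lower in *nup85-1* (25.9% of all genes) and 8 in Col-0 (23.2%), and 1 was higher in each (25.6% and 24.0%). The higher one was *PIF3*, a phytochrome-interacting factor, at 1.97 (SE 0.19, adjusted p = 0.00116) in *nup85-1* and 2.42 (SE 0.16, adjusted p = 0.000630) in Col-0. *GNC*, a GATA factor that promotes greening, was lower, at -1.65 (SE 0.14, adjusted p = 0.000886) in *nup85-1* and -2.01 (SE 0.22, adjusted p = 0.00171) in Col-0. The other *PIF* genes on the list did not all go the way of *PIF3*. *PIF1* and *PIF5* were lower in every ABA library than in every mock library of the same genotype. *PIF4* was lower after ABA in replicates 1 and 2 of both genotypes and higher in replicate 3. *ABI4*, an ABA-related regulator, had 0 reads in every library.

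Clock genes differed between treatments and between replicates. *CCA1*, which peaks at dawn, had 7.30, 6.18 and 62.6 CPM in *nup85-1* ABA, against 54.2, 52.1 and 329 CPM in *nup85-1* mock. In Col-0 *CCA1* had 5.48, 4.33 and 50.0 CPM after ABA, against 44.3, 25.6 and 318 CPM with mock. *TOC1*, which peaks in the evening, had 283, 315 and 95.9 CPM in *nup85-1* ABA, against 52.2, 53.3 and 18.0 CPM in *nup85-1* mock. In Col-0 *TOC1* had 276, 294 and 127 CPM after ABA, against 81.1, 93.1 and 15.1 CPM with mock. *CCA1* was lower and *TOC1* higher after ABA at each replicate number. Replicate 3 had more *CCA1* and less *TOC1* than replicates 1 and 2 in all 4 groups. Some other clock genes did not keep 1 direction. *PRR7*, *PRR9* and *GI* were lower after ABA in replicates 1 and 2 of both genotypes and higher in replicate 3. *GI* had 55.0, 58.7 and 88.3 CPM in *nup85-1* ABA, against 108, 106 and 25.5 CPM in *nup85-1* mock. Of the 9 clock genes, 2 were higher in *nup85-1* (*LUX* and *TOC1*) and 0 passed in Col-0 by edgeR with 3 replicates, with 3 of 9 at an unadjusted p under 0.05 and 2 called by DESeq2. With replicates 1 and 2, 4 were higher and 5 lower in each genotype. In that setting 25.6% of all genes were higher and 25.9% lower in *nup85-1*, and 24.0% higher and 23.2% lower in Col-0. The labels give mock seedlings the same 3 h in liquid as ABA seedlings, but a heat map in the paper marks its mock columns as 0 h. If that holds for these libraries, the hour of harvest and ABA cannot be told apart. The part of clock phase in the falls of the 43 genes was not tested.

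Markers of other tissues were also set beside these values. The summed CPM of 10 root markers was 16.3, 13.3 and 54.1 in *nup85-1* ABA, against 34.6, 42.8 and 23.4 in *nup85-1* mock. In Col-0 it was 23.5, 26.9 and 53.3 after ABA, against 35.1, 55.5 and 42.9 with mock. By edgeR with 3 replicates, 0 of 9 root markers that passed the count filter were called in *nup85-1* (0 at an unadjusted p under 0.05 and 1 by DESeq2), and 1 of 10, *CASP5*, was higher in Col-0 (3.28, SE 0.73, adjusted p = 0.0157). With replicates 1 and 2, 6 of 8 were lower in *nup85-1* (25.9% of all genes), and 4 of 10 were lower and 1 higher in Col-0 (23.2% and 24.0%). Their sum was higher after ABA in replicate 3 of both genotypes, and lower in replicates 1 and 2. The part of tissue make-up in these results was not tested. Of 5 guard cell markers, *KAT1* was lower in *nup85-1* (-1.0, SE 0.23, adjusted p = 0.0176) and *MYB60* in Col-0 (-1.21, SE 0.19, adjusted p = 0.00479). Among all genes, 13.8% and 14.9% were lower. The markers did not share 1 direction. *FAMA* had 28.2, 27.8 and 16.4 CPM in *nup85-1* ABA, against 19.2, 20.4 and 16.8 CPM in *nup85-1* mock. In Col-0 *FAMA* was lower after ABA at each replicate number. In the ABA response list, 4 of 5 genes were higher in *nup85-1* (15.4% of all genes) and 5 of 5 in Col-0 (16.5%). They were led in Col-0 by *ABI1*, a phosphatase of ABA signalling (2.44, SE 0.21, adjusted p = 0.000935).

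**Figure D5:**
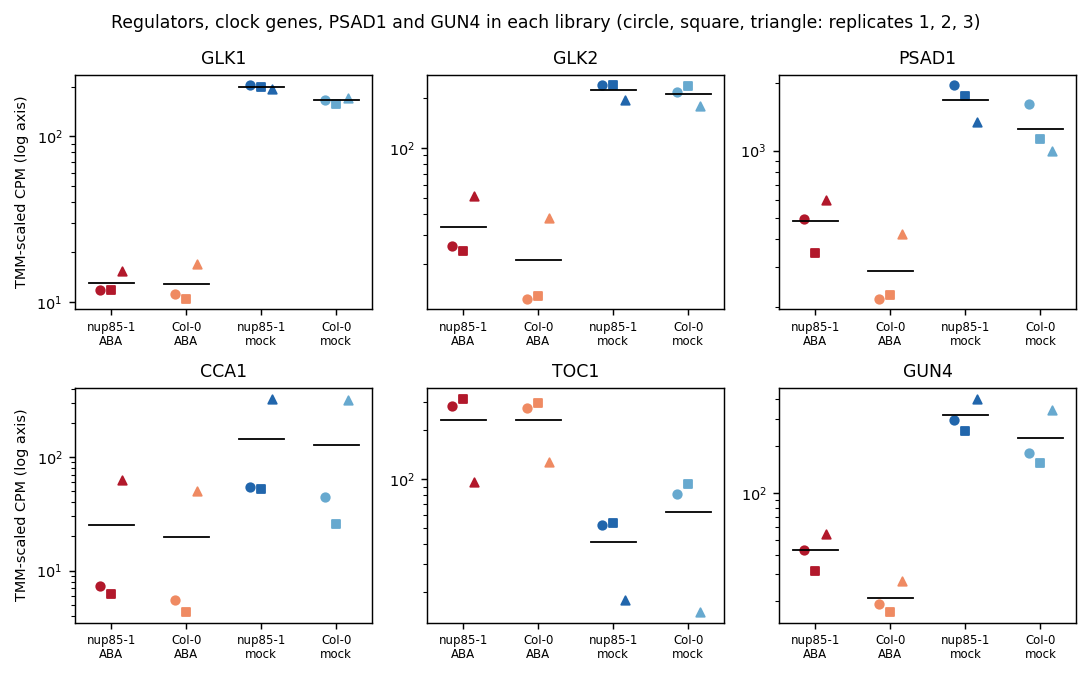
TMM-scaled CPM (vertical log axes, which differ between panels) of *GLK1*, *GLK2*, *PSAD1*, *CCA1*, *TOC1* and *GUN4* in the 12 libraries, with the group mean as a line. *GLK1* lies between 10.4 and 16.9 CPM in ABA libraries and between 158 and 204 CPM in mock libraries, and the replicate 3 triangles stand apart from replicates 1 and 2 for *CCA1* and *TOC1*.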

How the data were processed

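RNA of 12 seedling libraries was sequenced, 3 per group. According to the methods, the authors trimmed reads to 70 bases, mapped them to TAIR10 with TopHat2 and counted them per gene with featureCounts, and the deposited table holds these raw counts. Use of strand, treatment of reads with several hits and tool versions are not given in the sources used here, so genes with near-identical copies are uncertain. The members and lists were chosen with earlier results of these data known.

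Counts were filtered (filterByExpr), scaled by TMM and tested with edgeR 4.0.16 (quasi-likelihood test, Benjamini-Hochberg adjustment over all genes tested, threshold 0.05) in R 4.3.3, on the libraries of each comparison, and for the interaction on all 12. All adjusted p-values come from edgeR unless DESeq2 1.42.0 is named. SE is the standard error of the log2 fold change. Total counts of 6616931 to 29798437 reads per library set the precision. Levels are TMM-scaled CPM. The alternatives were replicates 1 and 2, a replicate block, upper-quartile scaling, DESeq2, no count filter, no organelle genes, the fold limits of the study (4-fold for ABA, 1.5-fold between genotypes), 1 fit for all groups, and each library left out.

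Same-numbered libraries of the 2 genotypes deviated together (correlation across genes of deviations from the group means 0.685, 0.598 and 0.792 after ABA, and 0.587, 0.539 and 0.790 with mock), so the block is given beside the genotype comparisons. Replicate 3 stands apart in every group, and replicates 1 and 2 also correlated across numbers, at 0.535 and 0.447 after ABA. No pair of libraries within a group agreed within sampling noise.

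Named with values in every library were, per class, the genes with the lowest and the highest fold change in Col-0, genes called between genotypes, and the *LHCB1* and *RBCS* clusters. The other genes of isoform pairs were given by their fold changes. From each other list up to 3 genes by smallest p in Col-0 were named, only some of them with values in every library. *LHCB2.1*, *LHCB1.5*, *LHCA4*, *PSAL*, *PSAF*, *PSAG*, *PSAK*, *PSAN*, *PSAO*, *PSBP1*, *PSBR*, *PSBW*, *PSBX*, *GLK2*, *PIF1*, *PIF4*, *PIF5*, *ABI4*, *CCA1*, *PRR7*, *PRR9* and *GI* were named outside these rules, after their values were seen. Sequences, positions and coding identity come from RefSeq TAIR10.1 (Biopython 1.88), in which all 43 genes were found, while the counts carry no coordinates. Global alignments gave the identities, and a 70-base window counted as not unique where its exact letters occur again in the genome.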

Additional observations from a re-analysis of the deposited data

How the results depend on the processing

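Counts of the 43 genes called after ABA in *nup85-1*, 11 with 3 replicates, were 40 with replicates 1 and 2 (25.9% of all genes were lower), 43 with these and the replicate block (27.1%), 23 by DESeq2 (15%), 6 with the fold limit (2.88%), and 3 to 32 with each library left out (7.28% to 19.2%), where 3 of 43 is 6.98%. The median log2 fold change, -0.97, was -1.56 with replicates 1 and 2 and -1.57 with these and the block. In Col-0 the count, 18, was 7 with the fold limit (3.43%) and 8 to 21 with each library left out (7.19% to 16.4%). The block, which these ABA comparisons do not support as a pairing (correlations of same-numbered libraries 0.273, 0.0855 and 0.264 in *nup85-1* and 0.308, -0.0636 and 0.258 in Col-0), gave 14 and 16 with 3 replicates. The median stayed negative in every alternative of both ABA comparisons.

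Between genotypes after ABA the count, 0, was 1 with replicates 1 and 2, 2 with the replicate block and 4 with both (9.3% of the 43, near the 8.73% of all genes). The median, 0.10, was -0.15, -0.011 and -0.23 in the same 3 settings and -0.18 to 0.35 with each library left out, so its sign is not settled. Under mock treatment the median, 0.13, was -0.020 to 0.28 with each library left out. For the interaction the median, 0.03, was -0.39 with replicates 1 and 2, -0.073 with the block, -0.42 with both and -0.38 to 0.21 with each library left out. The count of genes called was 0 under mock treatment and for the interaction in every alternative run.

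Of single genes, *LHCB4.3* after ABA was -1.83 to 0.34 in *nup85-1* and -1.42 to 0.17 in Col-0 with each library left out, *LHCB2.2* between genotypes after ABA was -0.073 to 1.89 and its interaction -0.42 to 1.59. Over 67 results on named genes and 1017 alternatives, 836 kept direction and side of the threshold, 83 lost the call, 90 gained it and 8 changed sign. Upper-quartile scaling moved the median of all genes to -0.09 in *nup85-1* and -0.15 in Col-0. The cause of these differences was not tested.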
